A study of Equus caballus with 12 samples.

Results

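The genes described here are regulators of metaphase II arrest and of M phase in the horse oocyte. The list held 10 genes, chosen by name for their role, and a gene was followed when Supplementary File S1 or S2 of the study paired its name with an Ensembl identifier of the deposited values. Of the 10 genes, 7 had such a pair: CCNB1, CCNB2, CDC20, AURKA, PLK1, WEE2 and BTG4. They are 7 of 11425 genes in the values. CDK1, MOS and FBXO43 had no pair in the lists used here and were not analysed here.

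Messenger RNA from the 3' ends of transcripts was sequenced in pools of horse oocytes from slaughterhouse ovaries, and every oocyte kept had been matured in vitro, freed of cumulus cells and seen to carry a polar body. In the VIM group (4 samples, called VGV in the labels), immature oocytes with their corona radiata were vitrified, warmed and then matured. In the VMAT group (3 samples), oocytes were matured, freed of cumulus cells, vitrified, warmed and cultured briefly. The FR group (5 samples) was matured together with the VMAT oocytes and never vitrified. The labels give a group and a replicate number, and the study's methods describe each replicate as a pool of oocytes. The animals behind the pools are not given, so p-values rest on differences between pools and not between animals.

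An oocyte waits for the sperm at metaphase II with high activity of CDK1 bound to cyclin B. That activity lasts because the anaphase-promoting complex, which with its activator CDC20 marks cyclin B and securin for destruction, is held back by FBXO43 (EMI2), the end point of the MOS-MAPK pathway. At fertilisation, calcium removes this brake, cyclin B is destroyed, and the kinase WEE2 adds inhibitory phosphate to CDK1. The fully grown oocyte is transcriptionally silent, so all of these proteins are made from stored mRNA, whose decay is set in motion by BTG4.

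The values are normalized counts, that is the reads of a gene divided by a size factor for the sample, and they came from 1636620 to 12166950 reads on genes per sample (median 2899468). VMAT replicate 1 had the fewest reads and VMAT replicate 2 the most, and 3 reads correspond to a normalized count of 9.34 in the former and 0.376 in the latter. Their size factors, 0.321 and 7.98, lay further apart than their reads. Ranks of these 2 samples by normalized count therefore depend on this scaling. Of 16 oocyte markers listed, 10 had a name pair, and their summed normalized count was 10637 to 13752 in VIM, 10709 to 24910.2 in VMAT and 12847 to 14695 in FR. Among these were DPPA3 at 4501 to 16505 and GDF9 at 463 to 4413 in the samples. TLE6 was at 0 in VIM replicate 3 and FIGLA in VMAT replicate 1. The median log2 fold change of the 10 markers (first group over second, by limma) was -0.57 for VIM against FR, -0.67 for VMAT against FR and -0.05 for VIM against VMAT, and 0 of 10 had an unadjusted p under 0.05 in any comparison. The smallest p belonged to FIGLA for VIM against FR (-3.27), to KPNA7 for VMAT against FR (-1.23, but 0.22 without VMAT replicate 1, which held 12 reads) and to ZP1 for VIM against VMAT (-2.60, but -1.48 without VIM replicate 1). Of 13 cumulus and granulosa markers 1 had a pair, HAS2 (hyaluronan synthase of cumulus expansion), with a normalized count of 641 to 2144 in VIM, 254 to 1755 in VMAT and 462 to 1239 in FR. Of 8 blood and stroma markers 1 had a pair, PECAM1, at 188 to 888, 82.5 to 1450.1 and 8.01 to 892 in the same order. The part of other cells in the results was not tested.

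Of the 7 genes, 3 varied little between pools and 4 were high in some pools and low in others. AURKA, BTG4 and CCNB1 were at 1509 reads or more in all 12 samples and differed 5.01-fold, 2.79-fold and 2.62-fold between the highest and the lowest sample. PLK1 differed 216-fold, CDC20 71.6-fold, CCNB2 45.6-fold and WEE2 44.8-fold. None of the 7 genes was differentially expressed (DE) by limma in any comparison, and each pair of groups overlapped for each gene. The largest differences were those of PLK1, which was at 13 reads or fewer in every VIM sample, and of CCNB2, whose mean was highest in VIM.

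**Figure D1:**
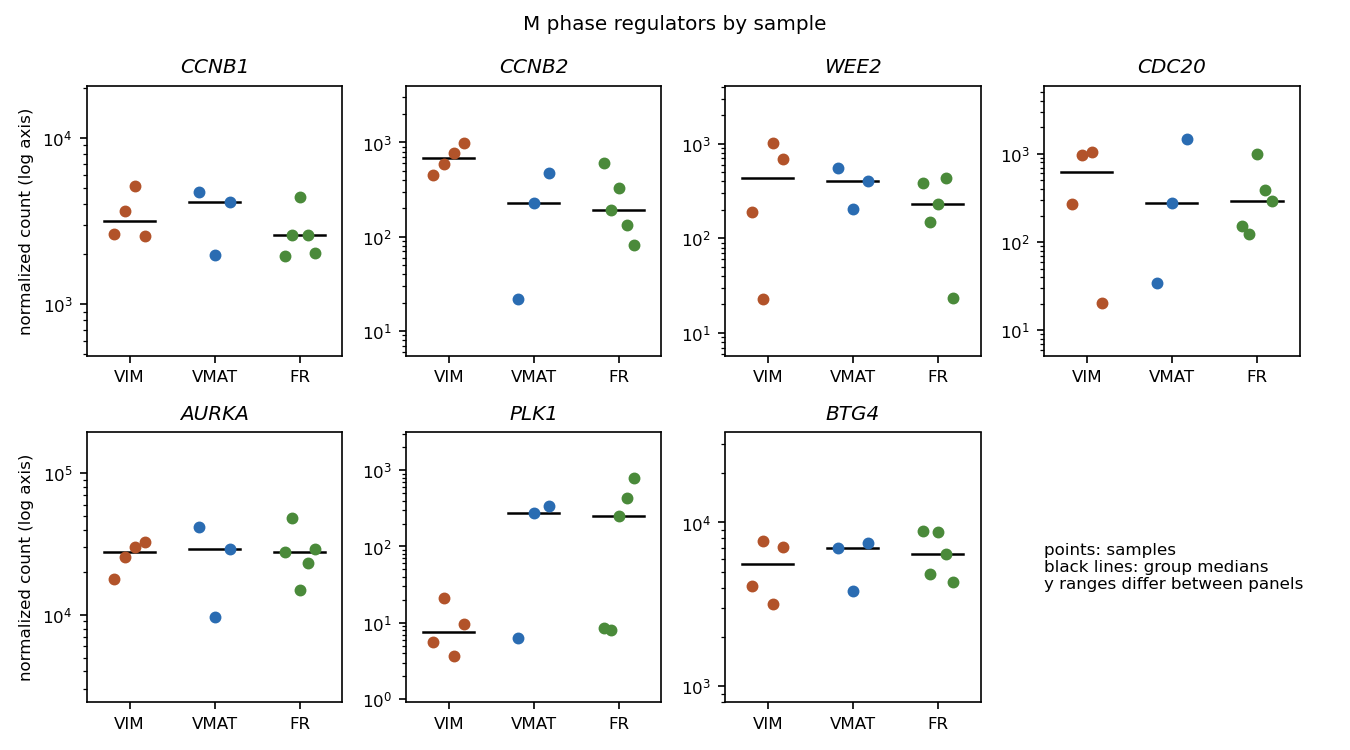
Normalized count (log axis) of each of the 7 genes in the VIM, VMAT and FR samples, with a point per sample and a black line at the group median. CCNB1, AURKA and BTG4 stayed within a narrow band, PLK1 was at 3.62 to 21.2 in all VIM samples, and the groups overlapped for every gene.

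CCNB1 (ENSECAG00000015806) encodes cyclin B1, the main partner of CDK1 in M phase. Its normalized count was 2654, 3639.8, 5118 and 2550.2 in VIM replicates 1 to 4. In VMAT replicates 1 to 3 it was 4696, 1973 and 4091, and in FR replicates 1 to 5 it was 1953, 2592, 4394, 2591 and 2020.2. The 3 groups overlapped, and the means were 3491 ± 1191 for VIM (SD, n = 4), 3587 ± 1430.0 for VMAT (SD, n = 3) and 2710 ± 989 for FR (SD, n = 5). Fold changes are given as log2 of first group over second group, with the standard error (SE) of limma. This SE is moderated, that is drawn towards the spread of genes of similar level. It and the p-values of limma thus do not measure the spread of the gene alone. For CCNB1 this was 0.37 (SE 0.45, adjusted p = 0.915 by limma) for VIM against FR and 0.38 (SE 0.65, adjusted p = 0.981 by limma) for VMAT against FR. The 95% interval of the former ran from 1.47-fold lower to 2.47-fold higher. Between VIM and VMAT the value was -0.0035 (SE 0.73).

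CCNB2 (ENSECAG00000014813), cyclin B2, is the second B-type cyclin that drives CDK1 in oocytes. The normalized counts were 457, 593, 778 and 992 in VIM replicates 1 to 4. They were 21.8, 228 and 473 in VMAT replicates 1 to 3, and 603, 193, 329.7, 133 and 80.9 in FR replicates 1 to 5. All 4 VIM samples were above FR replicates 2 to 5, and 2 of them were below FR replicate 1. VMAT replicate 1 held 7 reads, and its counting error was 37.8%. The mean was 705 ± 232 for VIM (SD, n = 4), 241 ± 226 for VMAT (SD, n = 3) and 268 ± 209 for FR (SD, n = 5). In VIM vs. FR the log2 fold change was 1.68 (SE 1.01, adjusted p = 0.902 by limma), with a 95% interval from 1.32-fold lower to 13.5-fold higher. In VIM vs. VMAT it was 2.33 (SE 1.48, adjusted p = 0.967 by limma), and 1.04 without VMAT replicate 1. In VMAT vs. FR it was -0.65 (SE 1.52) and 0.64 without VMAT replicate 1.

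Set against CCNB1 in the same sample, where the size factor cancels, CCNB2 had its highest group median in VIM, at 16.8, then 11.5 in VMAT and 7.46 in FR. There were 17.2, 16.3, 15.2 and 38.9 reads of CCNB2 per 100 reads of CCNB1 in VIM replicates 1 to 4, and 30.9, 7.46, 7.51, 5.12 and 4.0 in FR replicates 1 to 5. In VMAT replicates 1 to 3 there were 0.464, 11.5 and 11.6. FR replicate 1 lay among the VIM samples, and the other FR samples lay below all of them. This ratio was looked at after the values were seen, was not tested, and is one of reads and not of mRNA copies.

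WEE2 (ENSECAG00000021800) encodes the oocyte kinase that inhibits CDK1. In normalized counts it stood at 188, 22.8, 1022 and 689 in VIM replicates 1 to 4, 551, 202 and 407 in VMAT replicates 1 to 3, and 383, 149, 229.5, 431 and 23.6 in FR replicates 1 to 5. VIM replicate 2 and FR replicate 5 were far below the rest, at 14 and 33 reads, so the VIM samples lay on both sides of the FR samples. The means were 481 ± 459 for VIM (SD, n = 4), 387 ± 175 for VMAT (SD, n = 3) and 243 ± 167 for FR (SD, n = 5). The log2 fold change was 0.49 (SE 1.38, adjusted p = 0.974 by limma) in VIM vs. FR, and it was -0.21 without FR replicate 5, -0.22 without VIM replicate 3, -0.03 without VIM replicate 4 and 1.59 without VIM replicate 2. In VMAT vs. FR it was 1.07 (SE 1.42, adjusted p = 0.977 by limma), but 0.38 without FR replicate 5 and 0.45 in edgeR. Between VIM and VMAT it was -0.59 (SE 1.57).

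CDC20 (ENSECAG00000019705) encodes the activator of the anaphase-promoting complex. CDC20 had normalized counts of 271, 976, 1052 and 20.5 in VIM replicates 1 to 4, 34.2, 276 and 1470.3 in VMAT replicates 1 to 3, and 154, 124, 998, 395 and 292 in FR replicates 1 to 5. A sample with at most 21 reads occurred in both vitrified groups and not in FR. The SD was as large as the mean or nearly so, with 580 ± 513 for VIM (SD, n = 4), 594 ± 769 for VMAT (SD, n = 3) and 392 ± 356 for FR (SD, n = 5). The log2 fold change was -0.08 (SE 1.24) for VIM against FR and -0.28 (SE 1.40) for VMAT against FR, with limma adjusted p of 0.998 and 0.995. Without VIM replicate 4 the former was 1.15, and without VMAT replicate 1 the latter was 1.11. Without FR replicate 3 they were 0.36 and 0.16, and without FR replicate 4 the former was 0.02. Between VIM and VMAT the value was 0.20 (SE 1.62).

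AURKA (ENSECAG00000023961) encodes aurora kinase A, which builds the spindle poles and activates PLK1. It took 0.615% to 1.54% of all reads on genes of a sample. The normalized counts were 17827, 25605, 30088 and 32658 in VIM replicates 1 to 4, 41394, 9666 and 29050.5 in VMAT replicates 1 to 3, and 27587, 48388, 14904, 23288 and 28956 in FR replicates 1 to 5. The group means differed by less than the SD of any group, at 26545 ± 6501 for VIM (SD, n = 4), 26703 ± 15993 for VMAT (SD, n = 3) and 28625 ± 12334 for FR (SD, n = 5). Counting error was 0.867% or less in each sample. In VIM vs. FR the log2 fold change was -0.04 (SE 0.25, adjusted p = 0.991 by limma). The 95% interval from 1.47-fold lower to 1.38-fold higher was the narrowest of the 7 genes. This interval uses the moderated SE, and the spread of AURKA itself was not the smallest. Its SD of log2 values within groups was 0.69, beside 0.52 for CCNB1 and 0.54 for BTG4. The log2 fold change was 0.17 without FR replicate 2 and 0.14 without VIM replicate 1. In VMAT vs. FR it was -0.23 (SE 0.38, adjusted p = 0.977 by limma), and 0.38 without VMAT replicate 2. This deepest sample had the lowest normalized count of AURKA. As a share of reads, AURKA was lowest in FR replicate 3 (0.615%), then in VMAT replicate 2 (0.634%). Between VIM and VMAT the log2 fold change was 0.19 (SE 0.39).

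PLK1 (ENSECAG00000017777), polo-like kinase 1, acts with aurora kinase A on CDK1 activation, on the spindle and on the release of the anaphase-promoting complex from its inhibitors. Its normalized count was 5.52, 21.2, 3.62 and 9.78 in VIM replicates 1 to 4, from 9, 13, 3 and 10 reads. In VMAT replicates 1 to 3 it was 6.22, 278 and 338, from 2, 2220 and 287 reads. In FR replicates 1 to 5 it was 8.63, 8.01, 247, 436 and 780.3, from 8, 7, 442, 865 and 1090 reads. PLK1 was therefore either below 30 reads or above 280 in a sample. It was above 280 in 0 of 4 VIM, 2 of 3 VMAT and 3 of 5 FR samples. Of genes with a mean normalized count of at least 10, 59.1% were also under 30 reads in at least 7 samples. The counts are of reads and not of mRNA copies, and the part of library preparation was not tested. Since every sample is a pool, fewer oocytes with the mRNA and fewer copies in each oocyte cannot be told apart either.

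The mean normalized count of PLK1 was 10.0 ± 7.88 for VIM (SD, n = 4), 208 ± 177 for VMAT (SD, n = 3) and 296 ± 325 for FR (SD, n = 5). The log2 fold change was -3.35 (SE 2.07, adjusted p = 0.902 by limma) in VIM vs. FR and -3.26 (SE 2.75, adjusted p = 0.967 by limma) in VIM vs. VMAT. With each sample left out, the former ran from -4.20 to -2.59, and the latter from -5.06 without VMAT replicate 1 to -2.28 without VMAT replicate 3. FR replicates 1 and 2 lay inside the range of the VIM samples, and the limma intervals ran from 199-fold lower to 1.91-fold higher and from 414-fold lower to 4.52-fold higher. DESeq2 on reads recovered from the normalized counts called PLK1 DE in VIM vs. FR, with a log2 fold change of -4.90 (SE 1.41, adjusted p = 0.0104). Without FR replicate 5, the sample with the highest PLK1, the adjusted p of DESeq2 was 0.0904, and without any other sample it was 0.00488 to 0.0362. In edgeR the log2 fold change was -5.12 with an adjusted p of 0.281, and the unadjusted p was under 0.05, as it was for 16.8% of all genes in edgeR. In VMAT vs. FR the log2 fold change was -0.09 (SE 1.95, adjusted p = 0.997 by limma), and it was 1.71 without VMAT replicate 1, 0.26 without FR replicate 3, 0.46 without FR replicate 4 and 0.67 without FR replicate 5.

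Depth differed between the samples with and without PLK1. The 5 samples at 30 reads or more had 2447215 to 12166950 reads on genes and 6158 to 9504 genes above 0, and the 7 samples below 30 reads had 1636620 to 3930366 reads and 5470 to 6889 genes. The ranges overlapped, and VIM replicate 1 held 9 PLK1 reads at 3930366 reads on genes, whereas VMAT replicate 3 held 287 at 2447215. The part of depth in the difference was not tested.

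**Figure D2:**
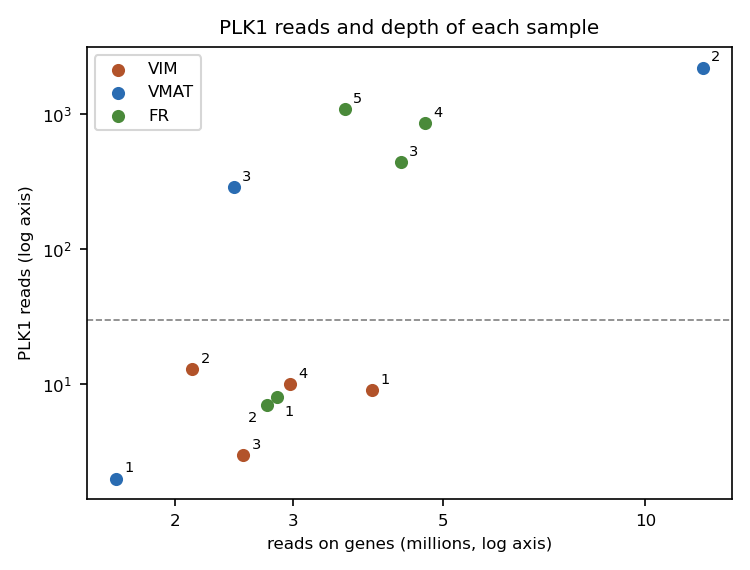
Reads of PLK1 against total reads on genes for each sample, both on log axes, with colours for VIM, VMAT and FR, replicate numbers beside the points and a dashed line at 30 reads. The 4 VIM samples, VMAT replicate 1 and FR replicates 1 and 2 lie below the line, and the 5 other samples hold 287 to 2220 reads.

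BTG4 (ENSECAG00000012564) encodes the adaptor that brings the CCR4-NOT deadenylase to maternal mRNA. BTG4 had normalized counts of 4109.8, 7671, 3177 and 7106 in VIM replicates 1 to 4, 6958, 3818 and 7486 in VMAT replicates 1 to 3, and 8872, 4849.9, 8750.2, 6450.1 and 4324 in FR replicates 1 to 5. Samples of each group were found in the upper and the lower part of this range, with means of 5516 ± 2208 for VIM (SD, n = 4), 6087 ± 1983 for VMAT (SD, n = 3) and 6649 ± 2124 for FR (SD, n = 5). The log2 fold change was -0.30 (SE 0.37, adjusted p = 0.915 by limma) for VIM against FR and -0.13 (SE 0.50, adjusted p = 0.995 by limma) for VMAT against FR. The latter was 0.18 without VMAT replicate 2. The 95% interval in VIM vs. FR ran from 2.08-fold lower to 1.37-fold higher, and between VIM and VMAT the value was -0.18 (SE 0.62).

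The comparison of VIM with fresh oocytes asked whether vitrification before maturation changed these mRNAs. That of VMAT with fresh oocytes asked the same for vitrification after maturation. VIM vs. VMAT compared the stages, together with what went with them. VIM oocytes were vitrified in their corona radiata and matured after warming, and VMAT oocytes were vitrified bare and sampled soon after warming. Only the VMAT and FR oocytes were matured together. The part of each of these was not tested. Genes were called DE when the adjusted p did not exceed 0.05 and the fold was 1 or more on the log2 scale in either direction. With limma 0 of 7 genes were DE in each comparison, beside 0% of the 7351, 8305 and 7627 genes tested. At an unadjusted p under 0.05 limma also gave 0 of 7 in each, beside 3.78% of all genes for VIM against FR, 3.62% for VMAT against FR and 2.98% for VIM against VMAT. DESeq2 called 1 of 7 in VIM vs. FR, which was PLK1, beside 6.87% of all genes (4.52% lower and 2.35% higher in VIM). It called 0 of 7 in each of the other comparisons, beside 4.26% (VMAT vs. FR) and 3.87% (VIM vs. VMAT). edgeR called 0 of 7 in every comparison, beside 0%, 0.012% and 0.0131%. Groups that did not overlap were found for 1.59%, 3.19% and 4.5% of all genes and for none of the 7.

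Regardless of sign, the median log2 fold change of the 7 genes was 0.37 for VIM against FR, 0.28 for VMAT against FR and 0.20 for VIM against VMAT. Over all genes tested these medians were 1.13, 1.17 and 1.23, without matching for level. In VIM vs. FR, 3 of the 7 had a log2 fold change above 0 and 4 below, with a median of -0.04 (all genes -0.12). A value of 1 or more in either direction was found for CCNB2 and PLK1 when VIM was compared with either group. WEE2 also passed 1 between VMAT and FR, but not without FR replicate 5 (0.38), in DESeq2 (0.68), in edgeR (0.45), with the replicate block (0.60) or with a pseudocount of 10 (0.98). The comparisons share their samples, so these values are not independent of each other.

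**Figure D3:**
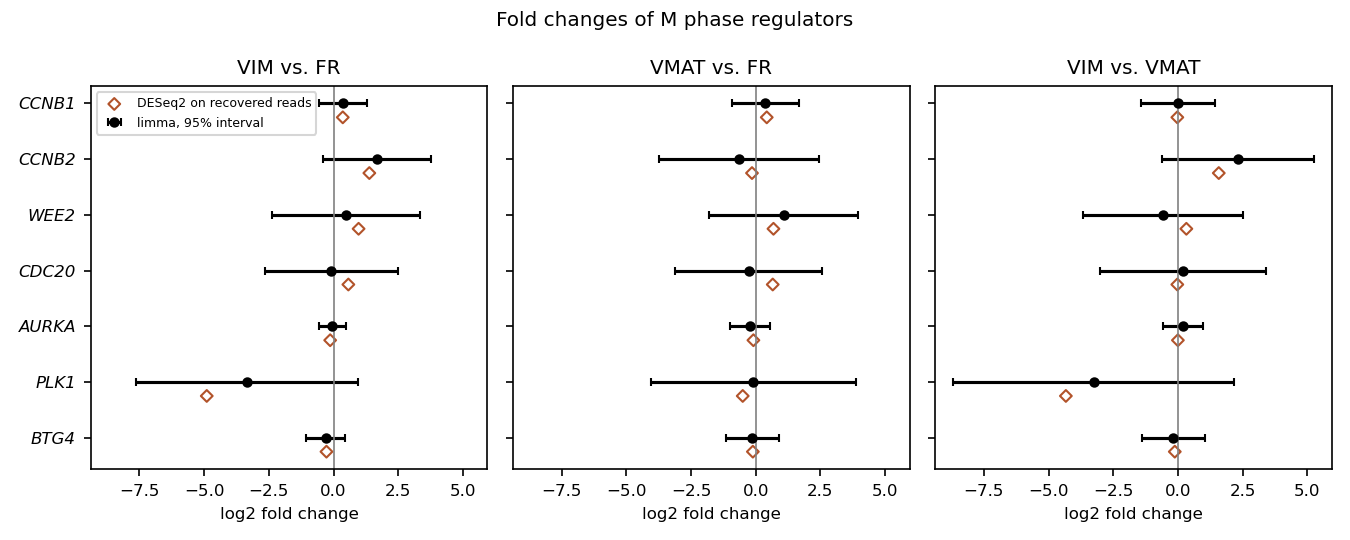
Log2 fold change of the 7 genes in the 3 comparisons, with limma values as black points, their 95% intervals as bars and DESeq2 values on recovered reads as open diamonds. Every limma interval holds 0, and PLK1 in VIM vs. FR has the lowest DESeq2 value, at -4.90.

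The 7 genes differed in their spread between pools of a group. The SD of log2 values within groups, pooled over the groups, was 0.52 for CCNB1, 0.54 for BTG4 and 0.69 for AURKA. It was 1.34 for CCNB2, 1.83 for WEE2, 2.13 for CDC20 and 2.60 for PLK1. Over the 7395 genes with a mean normalized count of at least 10, the median was 2.64, and 0.311% of them had a smaller value than CCNB1, 0.392% than BTG4 and 1.68% than AURKA. For PLK1 47.6% had a smaller value, near the middle of these genes. These shares were not matched for level, and CCNB1, BTG4 and AURKA were at 1509 reads or more in all 12 samples. Of the 7395 genes, 6656 were under 30 reads in at least 1 sample, and 59.1% were so in at least 7 samples, as PLK1 was.

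Of the 12 samples, FR replicate 2 alone was below the mean log2 value of CCNB2, WEE2, CDC20 and PLK1 together. By normalized count, VIM replicate 4 had the lowest CDC20 of all samples and the highest CCNB2. By share of reads, CDC20 was lowest in VMAT replicate 1 (0.000672%), then in VIM replicate 4 (0.000708%). VMAT replicate 1 was lowest in CCNB2 and low in CDC20 and PLK1, but its normalized count of CCNB1 was the second highest of all. As a share of reads its CCNB1 was 0.0922%, inside the FR range of 0.0639% to 0.181%. Over the 12 samples, Pearson's r between log2 values of any 2 of the 7 genes ran from -0.45 (AURKA and PLK1) to 0.42 (CDC20 and PLK1), with a median of 0.04 over 21 pairs. For CCNB1 and CCNB2, r was -0.02 and Spearman's rho 0.01. All points share their libraries and size factors, and these values are given as a description.

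**Figure D4:**
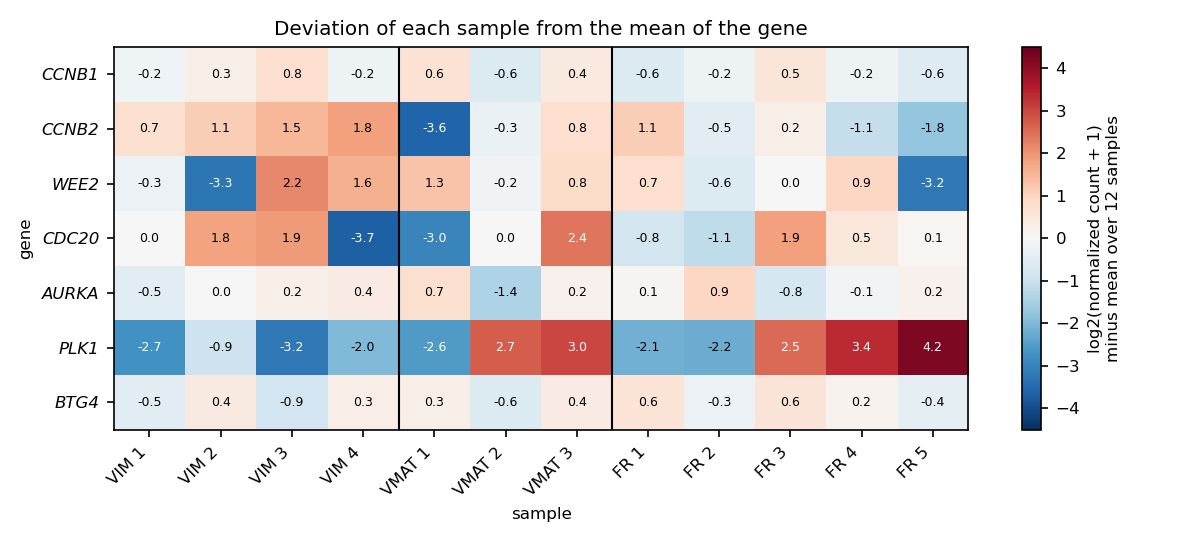
Log2 of the normalized count plus 1, minus the mean of the gene over the 12 samples, for the 7 genes (rows) in each sample (columns), with black lines between VIM, VMAT and FR. PLK1 is below its mean in all VIM samples, and no sample is low in every row.

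The named genes whose log2 values followed each of the 7 most closely over the 12 samples were sought among 2627 named genes, the gene itself left out. The closest to CCNB2 was SNRPF, a core protein of the spliceosome, with a Pearson's r of 0.93 (rho 0.80), then FRA10AC1 with 0.88. For PLK1 it was TLE1, a transcriptional corepressor, with 0.93 (rho 0.76), then LLGL2 with 0.84. The values for AURKA were 0.92 for CWC25 and 0.91 for ING3, and for WEE2 0.89 for FNDC3B and 0.86 for STX2. For CDC20 they were 0.88 for PFDN2, a prefoldin subunit, and 0.86 for AIMP2. CCNB1 was followed by RUVBL1 with 0.83 and PHACTR3 with 0.80, and BTG4 by CALM2, a calmodulin gene, with 0.81 and ZNF706 with 0.75. These were the highest values among the named genes, over samples that share libraries and size factors, and they are given as a description.

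Around these genes, 7 lists of their partners held 120 genes, of which 54 had a name pair, and all 54 were tested in each comparison. With limma 0 of 54 were DE in each comparison, beside 0% of all genes. DESeq2 on recovered reads also called 0 of 54 in each, beside 6.87%, 4.26% and 3.87% of all genes for VIM against FR, VMAT against FR and VIM against VMAT. At an unadjusted p under 0.05, limma gave 1 higher and 2 lower in VIM vs. FR, or 5.56%, beside 2.12% higher and 1.66% lower among all genes. It gave 0 higher and 2 lower for VMAT against FR, or 3.70%, beside 2.41% and 1.22%, and 0 for VIM against VMAT, beside 2.98%. Values without 1 sample, added after seeing the data, are given beside several of these genes, for the sample whose removal moved the fold furthest towards or past 0.

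Of the cyclins, CDKs and the enzymes that switch them, 13 of 19 had a name pair, and their median log2 fold change was -0.35 for VIM against FR and 0.14 for VMAT against FR. The smallest p belonged to CDK7 in VIM vs. FR and to CCNH in VMAT vs. FR. They are the kinase and the cyclin of the complex that activates CDK1. CDK7 had a normalized count of 29.3 to 1369 in VIM, 1.18 to 434 in VMAT and 1.43 to 519 in FR, and a log2 fold change of 4.05 in VIM vs. FR (SE 1.91, adjusted p = 0.902 by limma). It was also the gene with the smallest p in VIM vs. VMAT, at 3.01 (adjusted p = 0.967 by limma), which was 0.72 without VMAT replicate 3. CCNH was at 2.41 to 1064 in VIM, 1.18 to 162 in VMAT and 8.40 to 779 in FR, with a log2 fold change of -4.63 in VMAT vs. FR (SE 1.96, adjusted p = 0.95 by limma). In VIM vs. FR CCNH had -2.42, and in VMAT vs. FR CDK7 had 1.04. The signs of the 2 genes were thus opposite in both comparisons. They were the same in VIM vs. VMAT, where CCNH had 2.21. CDK7 was under 5 in FR replicates 1, 3 and 5 and at 29.3 in VIM replicate 4, CCNH was at 8.40 in FR replicate 3, and for both the groups overlapped.

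Of the genes of PP2A and PP1, phosphatases that oppose CDK1, and of the Greatwall pathway that restrains PP2A, 9 of 14 genes had a name pair. MASTL (Greatwall), ARPP19 and PPP2CA had none, so ENSA alone stood for the Greatwall pathway. The median log2 fold change was -1.04 for VIM against FR and -0.07 for VMAT against FR. In VIM vs. FR 7 of the 9 were below 0, beside 53.1% of all genes. Several of the 9 were near 0 in some samples of both groups. PPP2CB was at 0 to 419 in VIM and 0.56 to 322 in FR, and PPP1CC at 0.978 to 27.7 and 2.29 to 371. The median was the value of PPP2R1A (unadjusted p = 0.651 by limma). The smallest p belonged to PPP2R1B in VIM vs. FR (log2 fold change -3.16, adjusted p = 0.902 by limma) and to the PP2A-B55 subunit PPP2R2A in VMAT vs. FR and VIM vs. VMAT. PPP2R2A was at 3.91 to 104 in VIM and 159 to 1316 in VMAT, which did not overlap, and its log2 fold change was -3.55 (SE 2.05, adjusted p = 0.967 by limma) in VIM vs. VMAT. It was 2.02 in VMAT vs. FR (adjusted p = 0.95 by limma), and 0.92 without FR replicate 5. VIM and VMAT did not overlap for 4.5% of all genes. They also did not overlap for CNOT7 (3.26 to 37.2 in VIM, 80.2 to 131 in VMAT) of the maternal mRNA decay list. The same held for PABPN1L of that list (120 to 549 in VIM, 6.22 to 101 in VMAT). ZAR1, also of that list, did not overlap between VMAT (3.11 to 33.4) and FR (115 to 252). Its log2 fold change there was -3.83 (unadjusted p = 0.0542 by limma). VMAT and FR did not overlap for 3.19% of all genes.

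Of the anaphase-promoting complex, its inhibitors, securin and separase, 7 of 21 genes had a name pair, and securin (PTTG1) and FZR1 did not. The median log2 fold change was -0.13 for VIM against FR and -0.87 for VMAT against FR. The gene with the smallest p was the ubiquitin-conjugating enzyme UBE2S in VIM vs. FR (log2 fold change -0.80, adjusted p = 0.916 by limma) and in VIM vs. VMAT (-1.43, adjusted p = 0.972 by limma). In VMAT vs. FR it was the subunit CDC27 (-0.92, adjusted p = 0.977 by limma), at 0.23 without VMAT replicate 1. Of the spindle checkpoint, 5 of 10 genes had a name pair, and ZWILCH had the smallest p in VIM vs. FR (2.43, adjusted p = 0.902 by limma) and VIM vs. VMAT (1.27, adjusted p = 0.988 by limma). The former was 1.53 without FR replicate 5 and the latter -0.46 without VMAT replicate 1. The checkpoint kinase TTK had the smallest p in VMAT vs. FR (-2.02, adjusted p = 0.95 by limma). It was at 1425, 467 and 8.25 in VMAT replicates 1 to 3 and at 475 to 1129.6 in FR, and without VMAT replicate 3 the value was 0.14.

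Of the aurora and polo kinases and their partners, 5 of 10 had a name pair, and AURKB and AURKC did not. BIRC5 (survivin), of the chromosomal passenger complex, was at 212 to 988 in VIM and 27.5 to 1094 in FR, with a log2 fold change of 1.40 in VIM vs. FR (adjusted p = 0.903 by limma) and 2.38 in VIM vs. VMAT (adjusted p = 0.967 by limma). In VMAT replicates 1 to 3 it was at 9.34, 179 and 415, and without VMAT replicate 1, at 3 reads, the latter value was 0.81. Without FR replicate 2 the former was 0.73. PLK2 had the smallest p in VMAT vs. FR (1.41, adjusted p = 0.959 by limma). It was at 537, 8.01, 818, 611 and 279.9 in FR replicates 1 to 5, and the value was 0.24 without FR replicate 2. Only 2 of the 15 genes of the MOS-MAPK arm and of the calcium signal had a name pair, both of them calcineurin subunits. PPP3R1, the regulatory subunit, was at 78.3 to 1377 in VIM and 602 to 1335 in FR, with a log2 fold change of -2.21 in VIM vs. FR (SE 0.94, adjusted p = 0.902 by limma), and VIM replicate 2 alone was above the FR samples. Its log2 fold change was -2.23 in VIM vs. VMAT (adjusted p = 0.967 by limma), and -1.54 without VMAT replicate 1. PPP3CA, the catalytic subunit, had 0.18 in VMAT vs. FR (adjusted p = 0.995 by limma), and -1.17 without VMAT replicate 1.

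Of the genes of maternal mRNA decay and translational control, among which BTG4 acts, 13 of 31 had a name pair. Their median log2 fold change was -0.35 for VIM against FR and -0.34 for VMAT against FR. Below 0 were 7 of the 13 in VIM vs. FR, beside 53.1% of all genes, and 10 in VMAT vs. FR, beside 49.7%. The m6A reader YTHDF2, which directs maternal mRNA to decay, had the smallest p in both. YTHDF2 had normalized counts of 255, 4.89, 6.03 and 1.96 in VIM replicates 1 to 4, 6.22, 238 and 3.54 in VMAT replicates 1 to 3, and 959.6, 327, 237, 568 and 925 in FR replicates 1 to 5. The highest VIM and VMAT samples just passed the lowest FR sample. The log2 fold change was -5.30 (SE 1.59, adjusted p = 0.902 by limma) for VIM against FR and -4.72 (SE 1.61, adjusted p = 0.95 by limma) for VMAT against FR, and in DESeq2 the adjusted p was 0.0824 and 0.288. CPEB4, which binds the cytoplasmic polyadenylation element, had the smallest p in VIM vs. VMAT (2.94, adjusted p = 0.967 by limma), at 1.18 without VMAT replicate 3.

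**Figure D5:**
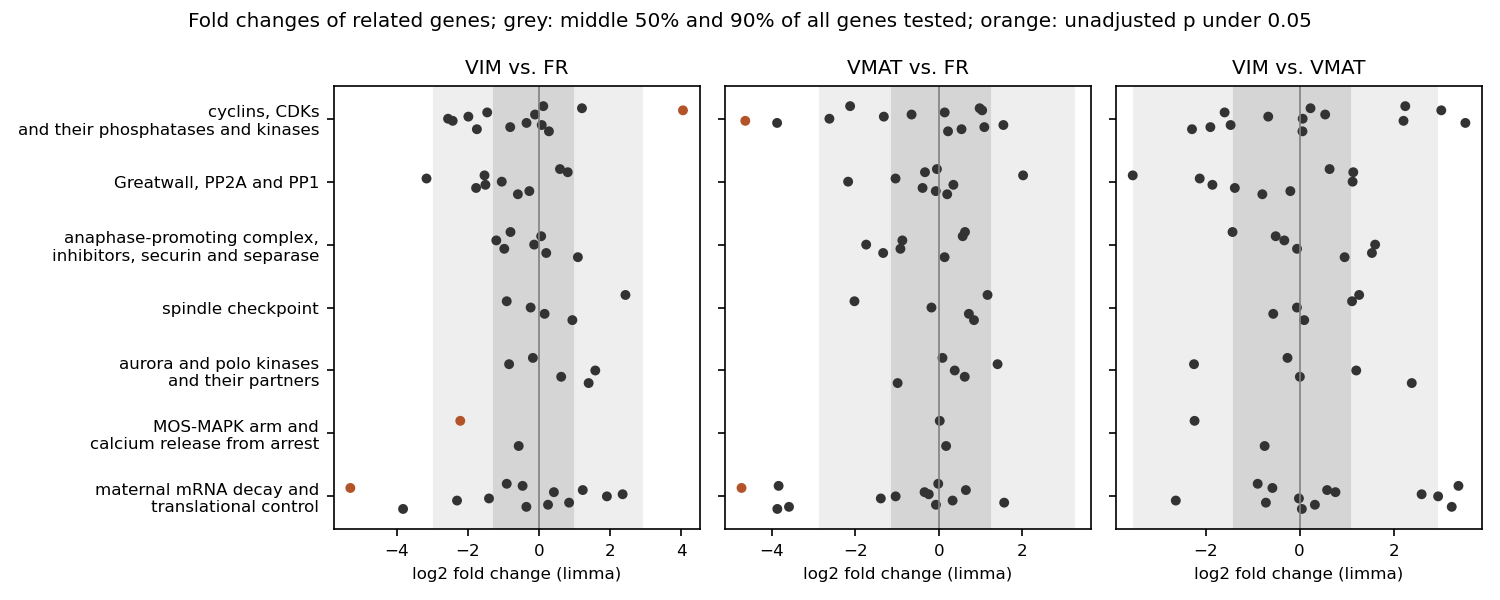
Log2 fold change (limma) of the 54 related genes in the 7 lists for each comparison, with the middle 50% and 90% of all genes tested in dark and light grey and genes at an unadjusted p under 0.05 in orange. The orange points are CDK7, PPP3R1 and YTHDF2 in VIM vs. FR and CCNH and YTHDF2 in VMAT vs. FR, and none of the genes was DE.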

How the data were processed

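Per the submitters' notes and the study's methods, reads were trimmed with Trim Galore and aligned to EquCab3.0 by STAR. UMI-tools handled the molecular identifiers, RSEM counted, and 1 VMAT sample was dropped by the authors. The deposited signal is a normalized count, scaled by the authors with 1 DESeq2 size factor per sample. All 12 samples were used. Dividing each by its smallest value above 0 gave whole reads for 100.0% of values, at a relative tolerance of 0.001. The main test was limma 3.58.1 (R 4.3.3, eBayes with trend) on log2(normalized count + 1), fitted to the 2 groups compared. A gene entered it when above 0 in no fewer samples than the smaller group holds. P-values were adjusted by Benjamini-Hochberg over all genes tested. DESeq2 1.42.0 and edgeR 4.0.16 (quasi-likelihood) used the recovered reads. The fits were also run on simulated counts with large planted changes, as a check of the code. The spread of those counts was set smaller than in these data, so that run does not measure power or false calls here. Intervals are 95% intervals of limma and use its moderated SE, and counting error covers the sampling of reads only.

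Names came from the 2 supplementary files, held in part, which paired 2627 identifiers. All 7 genes followed had a pair in S2 and 5 also in S1. The genes and lists were chosen with earlier results of these data known. The text names all 7. From each list and comparison it names the genes at an unadjusted limma p under 0.05 and the one with the smallest p. It names CNOT7, PABPN1L and ZAR1 for groups that did not overlap. It also names the 2 genes most like each of the 7 by Pearson's r, among named genes with a mean of at least 10 and above 0 in at least 6 samples. Alternatives were a pseudocount of 10, no filter, a mean of at least 10, equal column totals, all samples in one fit, a replicate block, both count tools, and leaving out each sample (for list genes, chosen after seeing the data). Python 3.11.15 made the tables and figures. Positions and sequences were not analysed here.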

Additional observations from a re-analysis of the deposited data

Results flagged for a closer look

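Within groups of 4 or 5 samples, a sample was marked when its gap to the nearest other one took up most of the range of the group (Dixon's test at 95%). Of 14 groups tested over the 7 genes, 1 held such a sample, against 0.7 expected by chance. CCNB1 had a normalized count of 4394 in FR replicate 3, and 1953 to 2592 in the other FR samples.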

How the results depend on the processing

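Over all genes, limma called 0 DE in each comparison and under each alternative, except 3 for VIM against FR without the filter on low values. DESeq2 called 505 there, 354 for VMAT against FR and 295 for VIM against VMAT, and edgeR called 0, 1 and 1. The study itself reported far fewer DE genes by DESeq2 in each comparison, at the same thresholds. The cause of this gap was not tested. Of the 7 genes, only PLK1 between VIM and FR was DE under any alternative, by DESeq2 (1 gene). Leaving out each sample in that DESeq2 fit, chosen after seeing the data, gave 0 to 1. With limma and each sample left out, its adjusted p was 0.853 to 0.923.

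Several small differences changed sign, and the cause was not tested. With DESeq2, VIM against VMAT gave -0.0049 for AURKA, -0.028 for CDC20 and 0.32 for WEE2, and CDC20 gave 0.57 for VIM against FR and 0.66 for VMAT against FR. With edgeR, VIM against VMAT gave 0.025 for CCNB1, -0.23 for CDC20 and 0.45 for WEE2, and CDC20 gave 0.34 for VIM against FR and 0.56 for VMAT against FR. With a pseudocount of 10, CDC20 gave 0.0067 for VIM against FR. With samples of the same number as a replicate block, which drops unmatched samples, CCNB1 gave 0.13 for VIM against VMAT, PLK1 1.66 for VMAT against FR and WEE2 -0.21 for VIM against FR. The block left the count of DE genes at 0 in each comparison, and same-numbered samples did not deviate together (r from -0.03 to 0.01).

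With each sample left out, VIM against FR ran from -0.25 to 0.17 for AURKA, from -0.72 to 1.15 for CDC20 and from -0.22 to 1.59 for WEE2. VIM against VMAT ran from -0.42 to 0.63 for AURKA, from -0.48 to 0.057 for BTG4, from -0.39 to 0.24 for CCNB1, from -1.20 to 1.496 for CDC20 and from -1.29 to 0.52 for WEE2. VMAT against FR ran from -0.67 to 0.38 for AURKA, from -0.31 to 0.18 for BTG4, from -1.55 to 0.64 for CCNB2, from -1.58 to 1.11 for CDC20 and from -1.07 to 1.71 for PLK1.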
